A study of Drosophila melanogaster with 24 samples.

Results

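Paternally rescued *Drosophila* embryos were compared with wild type embryos at the end of embryogenesis. The samples were taken by their labels: 4 paternally rescued and 4 wild type embryo samples, 8 of the 24 samples of the series. Rescued embryos came from mothers whose germ line was homozygous for the deletion allele Manf delta96 on an FRT82B chromosome, made with a heat shock driven Flp recombinase, and carried a wild type *Manf* copy from the father. They therefore lacked the maternal *Manf* product and held 1 functional copy (Manf m delta96/+). Wild type embryos were labelled Wmix, a cross of w1118 and w-, so both groups were white. The labels give the wild type embryos neither the FRT82B chromosome nor the Flp transgene. Absence of maternal Manf, the single zygotic *Manf* copy and strain background therefore cannot be told apart in this comparison. Both groups were late stage 17 embryos whose tracheae were being filled with air. RNA was extracted from pools of whole embryos, so fewer cells of a type and less RNA per cell cannot be told apart. Below, a numbered embryo stands for 1 such pooled sample and not for a single animal. Another group, mz mutant embryos without maternal or zygotic *Manf* (MANFmzdelta96, 21 to 24 h after egg laying, 4 samples), shared the estimate of the spread.

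Manf is a small protein that is kept in the endoplasmic reticulum and is also secreted. It is known for its support of dopaminergic neurites in the fly and as a gene induced by endoplasmic reticulum stress. In *Drosophila* the egg is loaded with maternal *Manf* product, and the zygotic genome takes over later in development.

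Each value is a normalised log2 intensity of 1 probe on an Agilent array, as deposited, and a difference of 1 is a change by a factor of 2 in signal. Every embryo sample had a median of 9.15, and correlations between the 12 embryo samples between 0.935 and 0.989. Replicate numbers fell into a low series (1 to 4) and a high series (66 to 88). Each held 2 samples per group, and the series was a block in the test. In the low series wild type and rescued embryos each had 1 sample in Cy5 and 1 in Cy3. In the high series both wild type samples were in Cy3 and both rescued samples in Alexa488, so that dye and genotype cannot be told apart there. Changes within each series are therefore given beside the joint value. Both series enter the call, so a like sign in the 2 at a called probe is not separate support for it. A probe was called at an adjusted p under 0.01 by limma with Benjamini-Hochberg adjustment over all probes. The sources used here do not say which samples shared a slide, and the p-values speak only of the spread among these pools. The methods count 3 biologically independent samples a genotype where the labels give 4, so not all 4 may be independent, and the standard errors treat them as if they were.

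*Manf* was read by 2 probes. At the brighter probe wild type embryos 1, 2, 82 and 83 had 11.10, 11.28, 11.48 and 11.25. Rescued embryos 1, 2, 66 and 84 had 10.52, 10.63, 10.91 and 10.83. All 4 rescued samples were thus below all 4 wild type samples, and the same held at the other probe. There rescued embryos had 9.86, 10.09, 10.45 and 10.56 and wild type embryos 10.67, 10.83, 11.23 and 10.85. The log2 fold change was -0.56 (standard error 0.36, adjusted p = 0.9997 by limma) at the brighter probe and -0.65 (standard error 0.32, adjusted p = 0.985) at the other, so neither passed the test. Within the low series the changes were -0.61 and -0.77 and within the high series -0.50 and -0.53. The standard error includes the spread of the mz mutant embryos, which had 11.29, 10.12, 9.48 and 9.14 at the brighter probe, the sample labelled mz mutant embryo 1 lying within the wild type range. In a fit of the 8 wild type and rescued samples alone the standard errors were 0.11 and 0.13 and the adjusted p-values 0.0736 and 0.0828. Whether the probes read sequence that the deletion removes was not tested. None of the 5 measured genes on either side of *Manf* on arm 3R was called. Their log2 fold changes lay between -0.51 (*CG14879*, the nearest on one side) and 0.34 (*CG10317*).

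Few probes passed the threshold between rescued and wild type embryos. Of 45220 probes 31 were higher in rescued embryos (0.0686%) and 37 were lower (0.0818%). The 31 higher probes did not overlap between the 4 rescued and the 4 wild type samples, against 3.08% of all probes. The call rests on the same values, so the lack of overlap is not separate support for it. The higher probes held 19 probes of 14 named genes and 12 probes without a gene name. All 37 lower probes were without a gene name, while 573 named probes were lower and 1051 higher at an unadjusted p under 0.05. The count rested on single samples: leaving out any one of the wild type embryos, mz mutant embryo 87, or rescued embryo 1 or 84 left 1 to 3 called probes, and leaving out rescued embryo 66 left 11. Without rescued embryo 2, mz mutant embryo 88, 1 or 4 the counts were 61, 38, 40 and 142. No probe was called within the low or the high series alone, where 1397 and 2508 probes had an unadjusted p under 0.05. Over the alternatives tried the count ran from 0 (either series alone) to 354 (wild type 1 paired with rescued 2 and wild type 2 with rescued 1). With dye as a covariate the called probes of *CG6983* (4.08, adjusted p = 3.39e-04) and *CG1607* (3.17, adjusted p = 0.00794) passed, 2 genes whose brighter probes were not called. The other 17 named probes kept their direction but not their call. Among them the *mRpS17* probes gave 2.95 (adjusted p = 0.0115) and 2.86 (adjusted p = 0.0302), the *Cyp49a1* probes 2.68 (adjusted p = 0.0104) and 2.60 (adjusted p = 0.0343), and *CG31103* 1.32 (adjusted p = 0.111).

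**Figure D1:**
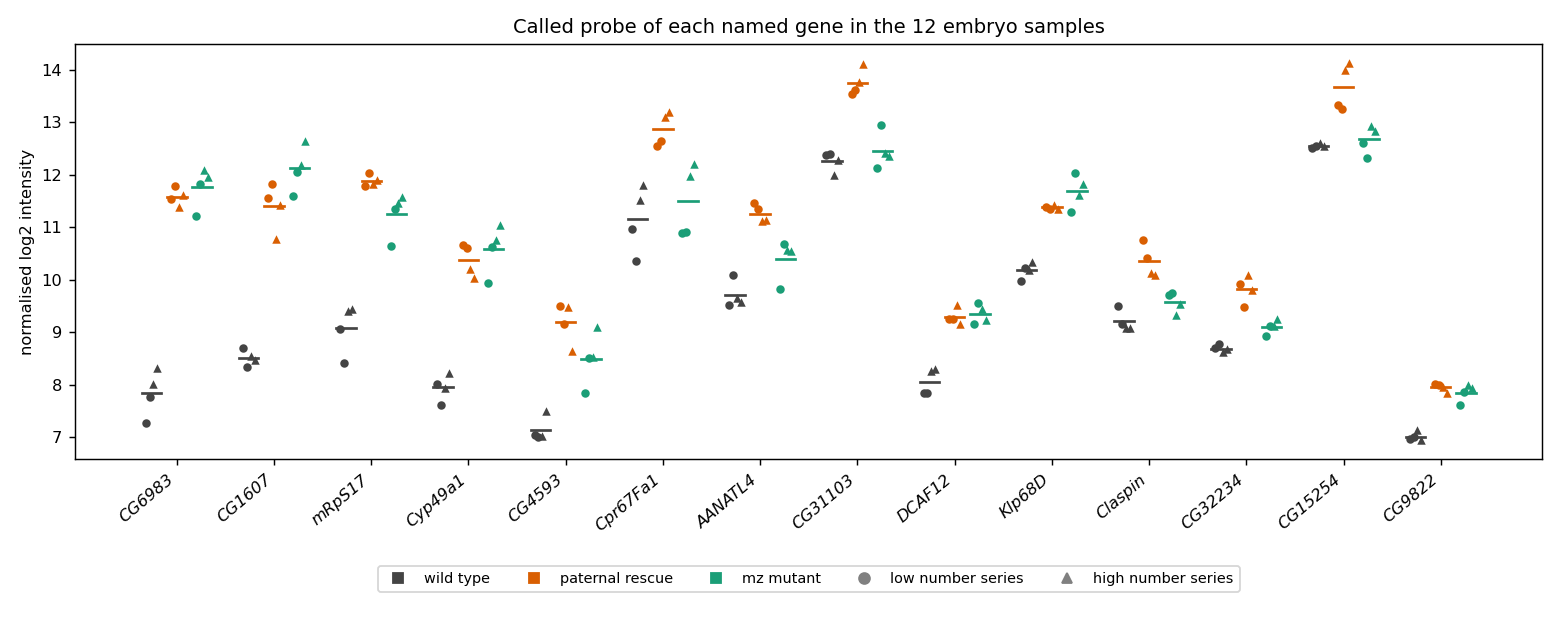
Normalised log2 intensity of the called probe of each of the 14 named genes (the probe with the larger change where 2 were called) in wild type, rescued and mz mutant embryos, 4 samples each. Circles are samples of the low and triangles of the high number series, and bars are group means. Every rescued sample lies above every wild type sample at each gene, and mz mutant samples lie near the rescued ones at some genes (*CG6983*, *DCAF12*) and near wild type at others (*CG15254*, *CG31103*).

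The largest change was that of *CG6983*. Its called probe had 7.27, 7.78, 8.01 and 8.32 in wild type embryos and 11.53, 11.80, 11.39 and 11.61 in rescued embryos. This is a 13.4-fold difference, or 3.74 on the log2 scale (standard error 0.21, adjusted p = 1.47e-04 by limma), with 4.14 in the low and 3.33 in the high series. The wild type values of the called probe lay toward the low end of the array, below the sample median of 9.15. The other, brighter probe of the gene gave -0.13 (standard error 0.19). The 2 probes thus disagree and the change cannot be assigned to the gene as a whole. *CG1607*, an amino acid transporter of the SLC7 family by homology, showed the same disagreement. Its called probe rose from 8.70, 8.34, 8.55 and 8.48 in wild type to 11.56, 11.83, 10.79 and 11.42 in rescued embryos. The log2 fold change was 2.88 (standard error 0.25, adjusted p = 0.00308), with 3.18 in the low and 2.59 in the high series, while its 2 brighter probes gave 0.04 and -0.05.

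*mRpS17*, a protein of the small subunit of the mitochondrial ribosome, rose at both of its probes. The first had 9.06, 8.43, 9.41 and 9.44 in wild type and 11.79, 12.03, 11.83 and 11.91 in rescued embryos, a 6.98-fold difference (log2 fold change 2.80, standard error 0.21, adjusted p = 0.00118). The second gave 2.75 (standard error 0.25, adjusted p = 0.0032). In the low series the changes were 3.16 and 3.01 and in the high series 2.44 and 2.49. Of the 72 measured mitochondrial ribosomal proteins *mRpS17* alone was called, 4 were higher and 0 lower at an unadjusted p under 0.05, and the median of the list was -0.03 against 0.04 for all 12738 genes. The rise of *mRpS17* was thus not shared by the list.

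*Cyp49a1*, a cytochrome P450, also rose at both probes. The first had 8.01, 7.62, 7.94 and 8.24 in wild type and 10.67, 10.62, 10.20 and 10.03 in rescued embryos. The log2 fold changes were 2.43 (standard error 0.24, adjusted p = 0.00375) and 2.34 (standard error 0.27, adjusted p = 0.00635), with 2.83 and 2.74 in the low and 2.03 and 1.94 in the high series. Of the 86 P450 genes measured, *Cyp49a1* was the 1 called at its brightest probe, 8 were higher and 2 lower at an unadjusted p under 0.05, and the median was 0.01. *Cyp4p2*, another P450, gave 2.27 (adjusted p = 0.0127) and 2.16 (adjusted p = 0.024) at 2 of its 3 probes and did not pass. Its other probe did not reach an adjusted p under 0.05.

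*Cpr67Fa1*, a structural protein of the cuticle, rose at both probes. Its brighter probe had 10.97, 10.36, 11.53 and 11.81 in wild type and 12.56, 12.64, 13.11 and 13.19 in rescued embryos, and the groups did not overlap. The log2 fold changes were 1.71 (standard error 0.17, adjusted p = 0.00375) and 1.61 (standard error 0.18, adjusted p = 0.00575), with 1.94 and 1.91 in the low and 1.48 and 1.32 in the high series. As a list the other cuticle proteins did not move with it: of 115 measured, 41 had a positive and 74 a negative value, *Cpr67Fa1* alone was called, and the median was -0.12. Of all 12738 genes 7335 had a positive value. At an unadjusted p under 0.05 by limma the list held 1 higher and 4 lower members. Without overlap 1 was higher and 6 were lower, against 302 and 119 of all 12738 genes. *AANATL4*, a relative of the enzymes that acetylate arylalkylamines such as dopamine, had 9.53, 10.09, 9.66 and 9.59 in wild type and 11.47, 11.35, 11.11 and 11.13 in rescued embryos. Its log2 fold change was 1.55 (standard error 0.20, adjusted p = 0.00987), with 1.59 in the low and a value within 0.1 of it in the high series, and its other probe gave 1.46 (adjusted p = 0.0181). *CG15254*, a predicted metalloprotease of the astacin family, had 12.52 to 12.60 in wild type and 13.25 to 14.14 in rescued embryos. Its 3 probes gave 1.13, 1.02 and 0.90, the first of them called, and the change was 0.76 in the low against 1.49 in the high series at that probe.

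*Klp68D*, a motor subunit of kinesin-2 that carries cargo along axons and cilia, had 9.98, 10.24, 10.19 and 10.34 in wild type and 11.38, 11.35, 11.43 and 11.36 in rescued embryos. Its log2 fold change was 1.19 (standard error 0.15, adjusted p = 0.00987), with 1.26 in the low and 1.13 in the high series, and 1.22 (adjusted p = 0.0193) at the other probe. *DCAF12*, a substrate receptor of Cul4 ubiquitin ligases, rose at both probes by 1.24 (standard error 0.14, adjusted p = 0.00635) and 1.23 (standard error 0.16, adjusted p = 0.00987), with 1.41 and 1.34 in the low and 1.07 and 1.12 in the high series. *Claspin*, a mediator of the DNA replication checkpoint, has 1 probe, with 9.50, 9.16, 9.08 and 9.09 in wild type and 10.77, 10.43, 10.13 and 10.09 in rescued embryos. Its log2 fold change was 1.15 (standard error 0.12, adjusted p = 0.00456), with 1.27 in the low and 1.03 in the high series. The remaining called genes have no role that is given here. *CG4593* rose at both probes by 2.05 and 1.66, *CG31103* by 1.49 and 1.47 with the first called, *CG32234* by 1.13 at 1 of 2 probes, and *CG9822* by 0.94 at 1 of 2 probes. At the probe with the larger change the low and high series gave 2.30 and 1.80 for *CG4593*, 1.18 and 1.80 for *CG31103*, 0.96 and 1.30 for *CG32234*, 0.76 and 1.49 for *CG15254*, and 1.02 and 0.86 for *CG9822*. *CG9822* and *CG4593* were near the low end of the array in wild type embryos, at 6.94 to 7.13 and 7.01 to 7.51. The first *Cyp49a1* probe (7.62 to 8.24) and the first *DCAF12* probe (7.84 to 8.30) were also below the sample median of 9.15 there.

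Of the 14 genes 5 had both of their probes called, and a further 4 with 2 or 3 probes had all of them at an adjusted p under 0.05. In *CG6983*, *CG1607*, *CG32234* and *CG9822* at least 1 other probe did not pass. When each gene was represented by its brightest probe and p-values were adjusted over genes, 6 of 12738 genes were called (0.0471%): *mRpS17*, *Cyp49a1*, *Cpr67Fa1*, *Claspin*, *CG32234* and *CG9822*, all higher. Of all genes 3.31% did not overlap between the groups at that probe.

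**Figure D2:**
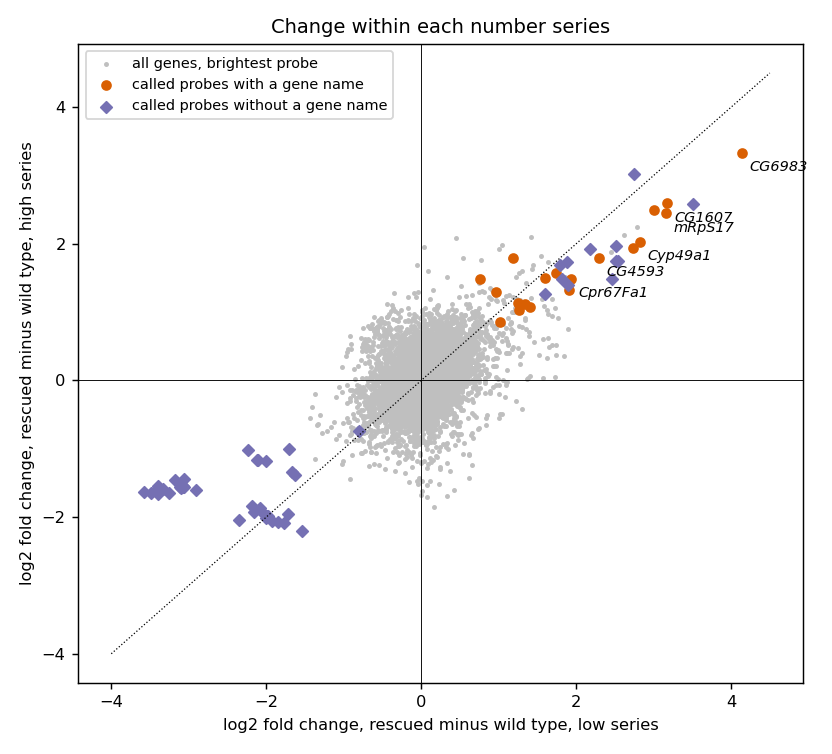
Log2 fold change of rescued against wild type embryos in the low series (x axis) and the high series (y axis), with 2 samples of each group in each. Grey points are all genes at their brightest probe, orange circles the 19 called probes with a gene name and purple diamonds the 49 called probes without one, and the dotted line marks equal change. Called probes with a gene name have the same sign in both series, which the call on both series favours. The lower probes form separate groups to the left.

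With mz mutant embryos the comparison can be carried further, since they lack the paternal copy as well. Mz mutant and rescued embryos were compared with the same wild type samples, so each comparison's own values are set side by side, and the difference between mz mutant and rescued embryos was tested directly. Of all probes 2.27% were called in mz mutant against wild type embryos and 1.48% in mz mutant against rescued embryos. Of the 19 called named probes, 5 differed between mz mutant and rescued embryos. *Cpr67Fa1* gave 0.33 in mz mutant against 1.71 in rescued embryos at the brighter probe, a difference of -1.38 (standard error 0.17, adjusted p = 0.00198), and -1.26 (adjusted p = 0.00356) at the other. *CG31103* gave 0.20 against 1.49, with a difference of -1.29 (standard error 0.20, adjusted p = 0.00513). *CG15254* gave 0.12 against 1.13, and fell by 1.005 between rescued and mz mutant embryos (standard error 0.15, adjusted p = 0.00455). *Claspin* gave 0.38 against 1.15, with a difference of -0.77 (standard error 0.12, adjusted p = 0.00622). These 4 genes were higher in rescued embryos than in either of the other groups. Their probes were chosen for high values in the same rescued samples, which by itself favours a negative difference here. Mz mutant embryos were staged by hours after egg laying and do not fill their tracheae, and dyes differ between the groups, and the part of either in these differences was not tested.

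At the other called genes the difference between mz mutant and rescued embryos did not pass the test. It was 0.19 (standard error 0.21, adjusted p = 0.758) for *CG6983*, -0.63 (standard error 0.21, adjusted p = 0.114) for the first *mRpS17* probe, 0.22 (standard error 0.24, adjusted p = 0.764) for the first *Cyp49a1* probe and 0.05 (standard error 0.14, adjusted p = 0.936) for the first *DCAF12* probe. The largest of these differences was that of *AANATL4*, -0.86 (standard error 0.20, adjusted p = 0.0376). A p above the threshold does not show that the 2 groups were alike.

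Mutant larvae (MANFdelta96, 29 to 50 h after egg laying) share no sample with the embryos and carry the same deletion, but have maternal *Manf*. They were fitted against wild type larvae (29 to 45 h) on their own, 4 samples each, where 7.93% of probes were called. In the low series wild type larvae were collected up to 44 h and mutant larvae up to 50 h, and the part of age was not tested. Of the 19 named probes 11 were called higher in mutant larvae and 14 had a positive value, against 47.1% of all named probes. Among the 11, *mRpS17*, *Cyp49a1* and *DCAF12* count with 2 probes each. *CG6983* gave 3.77 (standard error 0.24, adjusted p = 1.18e-04), *CG1607* 2.58 (standard error 0.23, adjusted p = 3.68e-04) and the first *mRpS17* probe 2.26 (standard error 0.11, adjusted p = 4.53e-05). The brighter *CG6983* probe gave -0.53 (adjusted p = 0.0111) in the same larvae and the 2 brighter *CG1607* probes -0.20 and -0.17, so the probes of these genes disagree there as well. *Cyp49a1* with 1.70, *DCAF12* with 1.60, *CG32234* with 1.00, *AANATL4* with 0.91 and *Klp68D* with 0.66 were also called. *Cpr67Fa1* (-0.28), *CG4593* (-0.02), *CG31103* (0.00), *CG15254* (0.17), *CG9822* (-0.07) and *Claspin* (-0.66, adjusted p = 0.0605) were not. All wild type larvae were in Cy3 and no mutant larva was, so dye and genotype cannot be told apart there. Mutant larvae carry the deletion chromosome and wild type larvae were Wmix. Lack of zygotic *Manf* and strain background therefore cannot be told apart in larvae either.

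**Figure D3:**
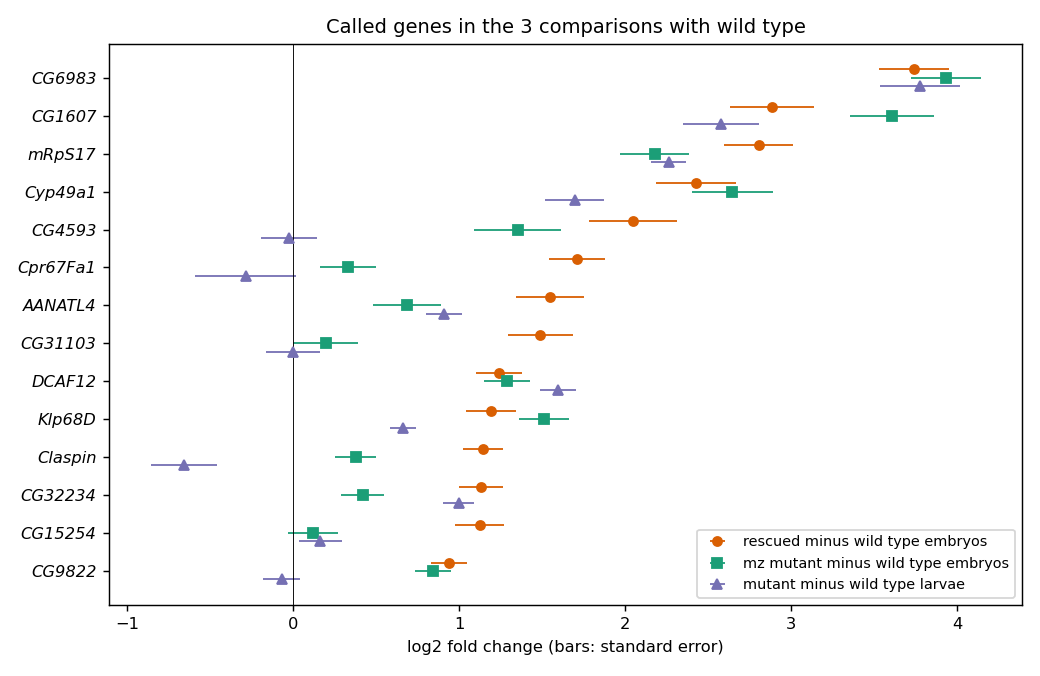
Log2 fold change with its standard error for the called probe of each of the 14 named genes: rescued against wild type embryos (circles), mz mutant against the same wild type embryos (squares) and mutant against wild type larvae (triangles), 4 samples a group. *CG6983*, *CG1607*, *mRpS17* and *Cyp49a1* lie above 1.5 in all 3 comparisons, and *Cpr67Fa1*, *CG31103*, *CG15254* and *Claspin* lie above 1 in rescued embryos and below 0.5 in the others.

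The 37 lower probes had a pattern of their own. Their median was 12.82 in both wild type embryos of the low series and 9.43 and 9.69 in those of the high series. In rescued embryos it was 9.76 and 9.94 in the low and 8.13 and 7.92 in the high series. At 36 of the 37 probes the gap between the 2 series within wild type embryos, 3.20 at the median, exceeded the change with genotype, which was -2.01 at the median. The groups overlapped at all but 3 of the 37 probes.

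Many of these probes read nearly alike. A row was counted as near identical to another where their correlation over the 12 embryo samples was above 0.98 and their mean absolute difference under 0.5. By this measure 36 of the 37 lower probes had at least 1 such row and up to 30, and the rows involved were 102 in all, 0 of them with a gene name. A set of 16 called probes had changes between -2.60 and -2.25, and a set of 12 had changes between -2.20 and -1.84. The deposited table does not mark control spots, and spike-in RNA was added to each sample, and whether these rows are such spots was not tested. In mz mutant embryos 34 of the 37 were below wild type, 11 of them called, against 2.27% of all probes called in either direction. The wild type samples are those by which the 37 were chosen, so a value below wild type is favoured by selection. With so many near identical rows, the 34 are not separate observations. With p-values adjusted over the 29872 named probes alone, a choice made after seeing the data, 9 probes were called, all higher.

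**Figure D4:**
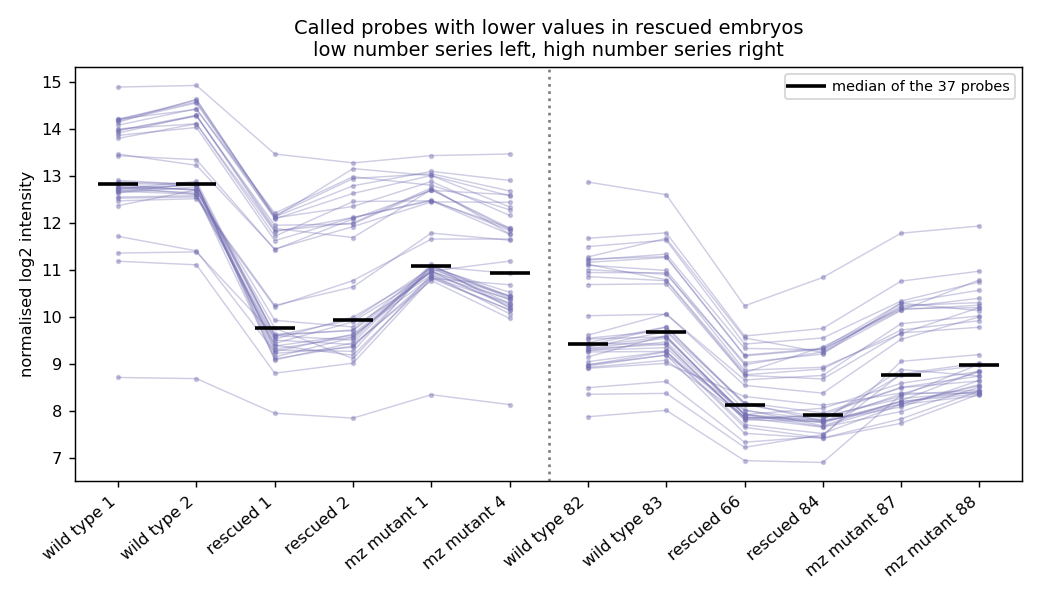
Normalised log2 intensity of the 37 probes called lower in rescued embryos, in each of the 12 embryo samples. A thin line joins the values of 1 probe within a series and black bars are medians over the 37 probes. The medians are 12.82 in wild type embryos 1 and 2 and 9.43 and 9.69 in wild type embryos 82 and 83, against 9.76, 9.94, 8.13 and 7.92 in the rescued embryos.

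The 12 higher probes without a gene name had log2 fold changes between 1.43 and 3.05. The largest read 8.25, 7.99, 8.53 and 8.90 in wild type and 11.49, 11.78, 11.31 and 11.29 in rescued embryos, a change of 3.05 on the log2 scale (standard error 0.26, adjusted p = 0.00308). The brightest read 11.91, 11.61, 11.76 and 12.26 in wild type and 13.96, 15.04, 14.99 and 15.07 in rescued embryos, with 2.88 (standard error 0.30, adjusted p = 0.00456). In both the 2 groups were well apart, which the call on the same values favours. By the measure above 14 of the 31 higher probes, named or not, also had at least 1 near identical row. The largest unnamed probe had 2 such rows, 1 of them with a gene name. Whether the unnamed probes repeat genes described above was not tested, so they are not counted as further genes.

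At a looser threshold of an adjusted p under 0.05, 264 probes passed (0.584%), 104 higher and 160 lower. They held 51 named genes that were higher and 5 that were lower. Of the 56 genes 50 have 2 or more probes, and 26 passed at 2 or more of them. Those named here were chosen after their values were seen. *mgr*, a prefoldin subunit, gave 2.37 (adjusted p = 0.0439) and 2.31 (adjusted p = 0.0338), and *zld*, the factor that opens chromatin at the onset of zygotic transcription, gave 1.56 (adjusted p = 0.0128) and 1.46 (adjusted p = 0.0138). *mthl8*, a receptor of the methuselah family, has 1 probe, which gave 2.52 (adjusted p = 0.0193). *Hml*, the haemocyte clotting protein hemolectin, gave 1.49 (adjusted p = 0.015) and 0.93 (adjusted p = 0.0282) at 2 of its 4 probes. Of the lower genes *Ser6*, a serine protease, gave -1.71 (adjusted p = 0.0277) and -1.55 (adjusted p = 0.0307) at 2 of its 3 probes. *eIF4E3*, a cap-binding translation factor, gave -0.94 (adjusted p = 0.0455) at 1 of its 3 probes. The other probes of these genes did not pass. Of the 54 genes of this wider list placed on a chromosome arm 19 lay on 3R (35.2%), the arm of *Manf*, where 24.8% of all genes lie, and of the 13 placed genes called at 0.01 3 did.

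A list of 19 measured genes was drawn from what the study says of paternal rescue and from its genes of exocytosis and of protein processing. It is not all that the study names, and *Dgk* and *Dgkepsilon* were added as relatives of *CG34384*. The study chose these genes on these samples, so their direction here is not independent evidence. At its brightest probe 0 of the 19 was called by limma, 8 were higher and 1 lower at an unadjusted p under 0.05, and 7 did not overlap between the groups, which is 36.8% against 3.31% of all genes. *Klp68D*, described above, is of this list and was called at its other probe. *dia*, a formin that nucleates actin filaments, had 10.67, 10.76, 10.13 and 10.26 in wild type and 12.06, 11.65, 11.66 and 11.24 in rescued embryos. Its log2 fold change was 1.20 (standard error 0.26, adjusted p = 0.0959 over all probes) at its 1 probe. *pst*, known for a role in memory, gave 1.77 (standard error 0.42), 1.63, 0.82 and -0.02 at its 4 probes, with none of them called. *CG34384*, a diacylglycerol kinase, gave -0.98 (standard error 0.18, adjusted p = 0.0427) and -0.94 (standard error 0.15, adjusted p = 0.0212) at 2 probes and -0.16 and -0.03 at the others.

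The probes of *pum* and *klu* disagreed. *pum*, a translational repressor, gave 1.01 (adjusted p = 0.0283) at 1 probe and 0.26, 0.23 and -0.20 at the other 3. *klu*, a zinc finger protein, gave 1.42 (adjusted p = 0.0266) at 1 probe and 0.35 and 0.31 at the others. *pros*, a regulator of neural differentiation, lay between 0.18 and 0.85 at 4 probes, *odd* between 0.29 and 0.40 at 3, and *sol*, a calpain-like protease, at 0.80 and 0.78. Of the membrane traffic genes *Syb*, a vesicle SNARE, gave 0.68 (standard error 0.16, adjusted p = 0.15 over all probes) and 0.61 at 2 probes and -0.03 and -0.05 at the other 2. *Rop* with 0.21 and *Membrin* with 0.26 were not called. *Cbl* (0.26), *Sil1* (0.28), *Snap29* (0.06), *Vamp7* (-0.04), *Sec24AB* (-0.26), *Dgk* (0.05) and *Dgkepsilon* (0.06) were not called at their brightest probes either.

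Lists of genes by function were counted at the brightest probe of each gene. Of 31 lists 28 had no called member. Over all 12738 genes 7335 had a positive and 5403 a negative value, and 524 were higher and 205 lower at an unadjusted p under 0.05. The 22 chaperones of the endoplasmic reticulum had a median of 0.06 and the 15 genes of the unfolded protein response 0.04, against 0.04 for all genes, and none of either passed even an unadjusted p of 0.05. *Pdi*, a protein disulfide isomerase, gave 0.05 and *crc*, the fly Atf4, 0.15. The 12 genes of dopamine synthesis and transport had a median of 0.03, with 0.19 for *Ddc*, which makes dopamine from dopa, and 0.09 for *Pu*, which supplies the cofactor of that pathway.

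The heat shock proteins had the highest median of the lists, 0.44, with 16 of 18 positive. They lay at 0.42 in the low and 0.29 in the high series, and 1 passed an unadjusted p of 0.05. *Hsp22*, a small heat shock protein of mitochondria, gave 1.37 (adjusted p = 0.943) and *l(2)efl* 0.49 (adjusted p = 0.801). The Osiris genes, a family active in the cuticle-forming epidermis, had a median of 0.36 with 20 of 24 positive, but 0.55 in the low and 0.06 in the high series. Their summed level, the log2 of the sum of linear intensities, ran from 13.4 to 17.3 over wild type and from 14.3 to 17.6 over rescued embryos, so the groups overlapped. The UDP-glycosyltransferases had the lowest median, -0.21, with 26 of 35 negative. Of them 6 were lower without overlap, against 119 of all 12738 genes, among them *Ugt35B1* with -0.80 (adjusted p = 0.312) and *Ugt304A1* with -0.75 (adjusted p = 0.812). The cytosolic ribosomal proteins had -0.15 in the low and 0.65 in the high series and so changed sign with the series.

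**Figure D5:**
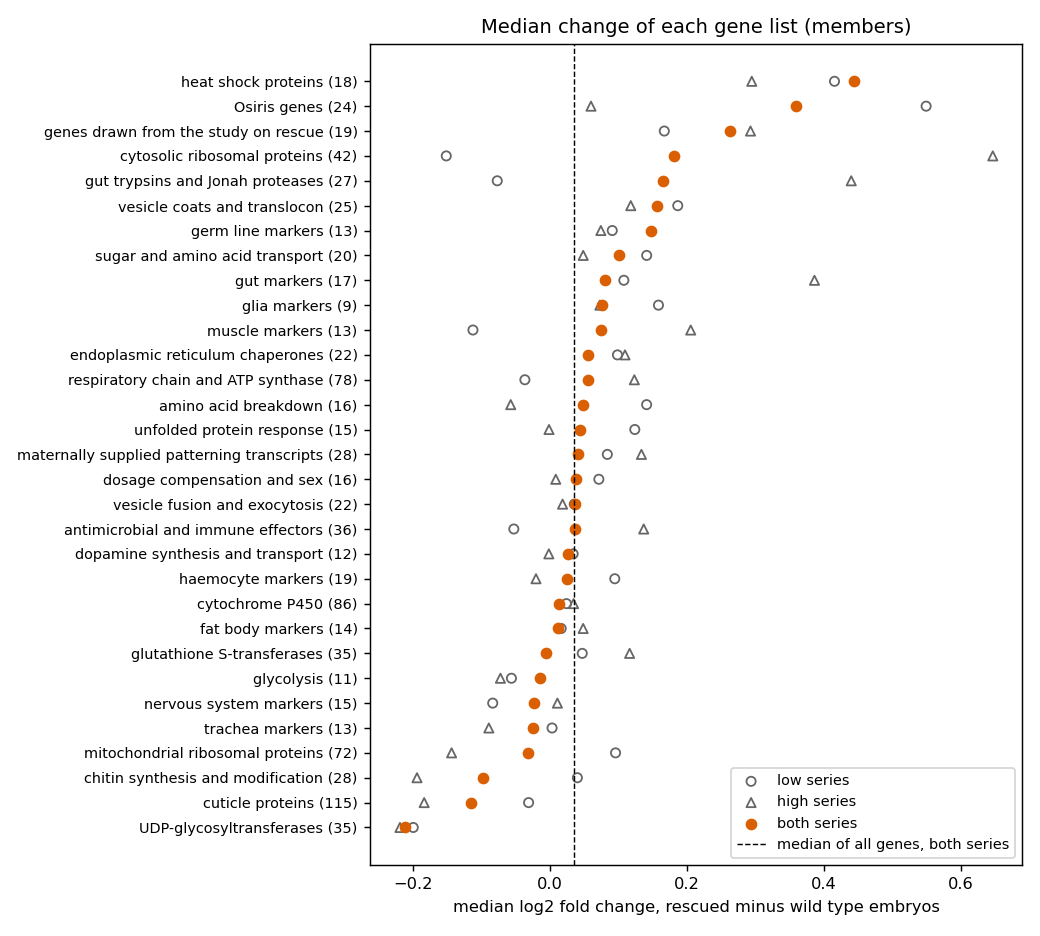
Median log2 fold change of rescued against wild type embryos for each of the 31 gene lists, with the number of measured members in brackets. Filled points are the joint fit, open circles the low and open triangles the high number series, and the dashed line is the median over all genes. The medians run from -0.21 (UDP-glycosyltransferases) to 0.44 (heat shock proteins), and the 2 series lie apart for cytosolic ribosomal proteins, gut trypsins and Jonah proteases (-0.08 and 0.44), and Osiris genes.

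Markers of the major tissues of the embryo were read in both groups. *elav* (neurons) read 11.1 to 12.4 in wild type and 10.5 to 12.4 in rescued embryos, *repo* (glia) 11.91 to 12.11 and 12.03 to 12.45, and *Mlc2* (muscle) 14.0 to 14.8 and 14.3 to 15.2. Their log2 fold changes were -0.45 (standard error 0.24), 0.29 (standard error 0.17) and 0.42 (standard error 0.24), and that of *Amy-p* (gut) was 0.37 (standard error 0.86), none of them called. *apolpp* (fat body), *Col4a1* (haemocytes and fat body), *Jon65Aiii* (gut) and *btl* (trachea) overlapped in the same way, with log2 fold changes between -0.08 and 0.08. *Hml* did not overlap, with 9.78 to 10.8 in wild type and 11.2 to 11.7 in rescued embryos at its brightest probe and a difference of 1.12 on the log2 scale (standard error 0.24, adjusted p = 0.174 over genes). The 19 haemocyte markers together had a median of 0.03, with summed levels of 16.7 to 17.0 in wild type and 16.8 to 17.0 in rescued embryos. *vas* (germ line) lay near the bottom of the array, at 7.99 to 9.25 and 8.12 to 9.25. Maternally supplied patterning transcripts, 28 in number, had a median of 0.04 with 17 positive.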

How the data were processed

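The authors hybridised labelled RNA from pools of whole animals to Agilent arrays, read the spots in GenePix Pro 6.0 as medians and did the preprocessing in limma (version not given in the sources used here). The values as deposited are normalised log2 intensities for 45220 probes, with 0 missing. Spot and background signals were not used here, and the number of arrays limits the precision. Gene names came from the platform annotation, updated with the Release 6 plus ISO1 MT gene table (29872 probes with 1 name, 15348 with none). List entries that matched no gene name or synonym by exact spelling, case included, were left out of the lists, also where the gene has a probe under another spelling (*BckdhA*, *BckdhB*).

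In R 4.3.3 with limma 3.58.1 the 3 embryo groups and the number series were fitted over the 12 embryo samples, and contrasts were tested with moderated statistics and Benjamini-Hochberg adjustment at 0.01. Gene counts used the probe of highest mean. The test was tried on simulated data. The genes named were the called genes, *Manf*, list members and genes drawn from the study. Members and lists were chosen with earlier results of these data known. Wild type and rescued embryos share the numbers 1 and 2, and deviations of same-numbered samples had a correlation of -0.42, so the numbers did not pair the samples. Both samples numbered 1 were in Cy5 and both numbered 2 in Cy3. Wild type 1 and rescued 2 correlated at 0.987, as did wild type 2 and rescued 1, against 0.980 for the same numbers. Whether the crossed samples shared an array is not stated, and the main fit treats them as unpaired. Alternatives were other sample sets, blocks, scalings, dim-probe filter, dye, weights, thresholds, probe means and each sample left out.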

Additional observations from a re-analysis of the deposited data

Results flagged for a closer look

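In 63 groups of 4 embryo samples (21 probes of *Manf* and the called genes, in 3 groups each) 3 had 1 sample that stood far from the others. Chance flags about 1 group in 20. Rescued embryo 2 read 12.29 at the second *mRpS17* probe, where the other rescued embryos had 11.84 to 11.88. Wild type embryo 83 read 7.51 at the brighter *CG4593* probe, where the other wild type embryos had 7.01 to 7.04. Mz mutant embryo 1 read 9.82 at the called *AANATL4* probe, where the other mz mutant embryos had 10.54 to 10.69.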

How the results depend on the processing

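The counts depended on the design. Rescued against wild type gave 68 probes and 6 genes, and mz mutant against rescued 667 probes. In that order the counts were 17, 1 and 397 without a replicate block for the series, 7, 1 and 187 over all 24 samples, 293, 31 and 2060 over 22 samples without overexpressing larvae 69 and 70, 2, 0 and 339 with dye as a covariate, 305, 24 and 1723 with array weights, and 264, 19 and 2439 at an adjusted p of 0.05. They were 0, 0 and 0 by limma in the low and in the high series alone, where 325 and 774 genes and, for mz mutant against rescued, 5650 and 10130 probes had an unadjusted p under 0.05. With dye as a covariate 502 genes did. The 8 samples of the 2 groups gave 73 probes and 0 genes, with 1204 genes at an unadjusted p under 0.05. Named probes alone gave 9. A block by sample number, whose numbers name samples only, gave 73, 6 and 678, and the pairing of wild type 1 with rescued 2 and of wild type 2 with rescued 1, added after seeing the data, 354, 39 and 712. Quantile normalization, equal medians, a filter on dim probes and the mean of a gene's probes kept each count within 1.5 times. Leaving out 1 sample gave 1 to 142 probes, 0 to 10 genes and 167 to 2659 probes. The cause of these differences was not tested. Over 567 values of the 21 probes above 0 changed sign, and of the 513 of called probes 252 no longer passed. The called *CG6983* probe passed in all but the 2 single-series fits. The array's spot signals were not used, so signal over background is not given.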
